A study of Mus musculus with 22 samples.

Results

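Mammary tumours of mice that carry the Her2/Neu transgene and are labelled null for PEA3 were compared with mammary glands of normal FVB mice. The comparison took the arrays titled Null1 and Null2 against those titled Pool 1, 2 and 3, which are 14 of the 22 arrays of the series and 5 of its 8 RNA samples. PEA3, encoded by Etv4, is a transcription factor of the ETS family that is expressed in the ducts of the developing mammary gland and in Her2/Neu tumours. Her2/Neu, encoded by Erbb2, is a receptor tyrosine kinase that signals through Ras and MAP kinases, and its transgene gives rise to tumours of luminal epithelium. A normal mammary gland is mostly fat pad, with ducts, vessels, nerves, lymphoid tissue and, depending on dissection, adjacent body wall muscle.

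The PEA3-null group held 2 RNA samples, described as pools from Neu-induced tumours of PEA3-null mice, and the normal group held 3, titled as pools of glands of FVB mice with no transgene or deletion named. Neu-induced tumours of mice wild type for PEA3, with 3 RNA samples, were in the same fits. They entered the signal filter and the shared estimate of spread, and so the p-values against normal glands. Their signals are given only beside those of PEA3-null tumours. The tumours' strain, the animals' age and parity and the promoter of the transgene are not given in the sources used here. For all groups the labels list FACS for Sca-1-positive cells, an estimated purity of 80% and a total RNA extract. The Sca-1 gene Ly6a had no tested probe set carrying it as its only symbol, so that label was not checked. All arrays of a group share 1 submitter sample identifier, so p-values measure the spread between these RNA samples, which may be technical, and their small number limits the precision.

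Each RNA sample was read on Affymetrix MG-U74v2 arrays of 3 chip types, A, B and C. The second PEA3-null sample was on chips A and B, so those were tested with 2 tumour arrays against 3 normal arrays, and chip C is described without a test. Values are MAS5 intensities rescaled to a trimmed mean of 500 per array, called signals below, and a probe set entered if 2 or more arrays of its chip type read 150 or higher. Differences are in log2(signal + 32), which understates folds of dim genes, and levels of different genes are not compared. "Rose" and "fell" mean a limma adjusted p under 0.05 against normal glands, and "did not pass" means the reverse. Per array, 6891 to 8415 probe sets reached 150. The 3' probe set of the GAPDH control was 0.910 to 1.11 times its 5' probe set on the 5 PEA3-null arrays and 2.58 to 6.08 times on the 9 normal arrays, a ratio that grows with degraded RNA. For actin the ratios were 1.14 to 1.26 and 1.28 to 2.14. Their part in the results below was not tested. Normal gland 3 had the highest GAPDH ratio on every chip type (5.25, 5.68 and 6.08). On chip A the wash of normal glands 1 and 2 is recorded as aborted, although their log2 signals correlated with each other at 0.963 and with gland 3 at 0.96 (Pearson, across probe sets). Tumour and normal arrays share no scan day, nor a chip lot on chips B and C, where lots are recorded for both, so these cannot be told apart from tissue in any result below.

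The genes named in the labels were read first. Etv4 was read by 2 probe sets on chip A that went opposite ways. The brighter one read 465 and 725 in the PEA3-null samples and 934, 612 and 832 in normal glands and did not pass (log2 -0.41, SE 0.37, limma adjusted p = 0.473). The dimmer one read 507 and 273 against 115, 177 and 152 and rose (log2 1.19, SE 0.34, limma adjusted p = 0.023). In wild-type tumours these probe sets read 917, 363 and 944 and 415, 356 and 357, overlapping the PEA3-null values. The files give no probe positions, so it is not known whether either lies in the deleted stretch, and the signal does not check the genotype. Etv5, which encodes the ETS factor ERM of the same subfamily, read 5735 and 3607 against 413, 312 and 359 and rose 11.7-fold (log2 3.55, SE 0.24, limma adjusted p = 4.67e-07), with 4821, 4823 and 4004 in wild-type tumours. Erbb2 was read on chip C, at 4764 in PEA3-null sample 1 against 1782, 1922 and 1858 in normal glands, which is 2.54-fold higher and was not tested. Etv1, the other gene of the subfamily, had no tested probe set of its own.

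Of 19214 probe sets tested on chips A and B, 12.3% rose (2354) and 12.5% fell (2397). With 1 probe set per gene, the brightest, 11743 genes were tested, of which 12.9% rose (1511) and 15.2% fell (1790), and the median log2 difference over all of them was 0.01. These gene shares are the background for the lists below. Falls were steeper than rises, since 886 probe sets fell at least 4-fold and 529 rose as much. Of 1143 called genes with another tested probe set, 385 had another that was called the same way and 441 had another of opposite sign. Among the genes described below these were C1qb, Tpsb2, Edem1, Sod1, Notch1, Axin2, Tgfbr2 and Bst2, and for Pdgfra and Spint1 the other probe set was itself called the opposite way. Of 6 other probe sets of Ighm, 2 were called the opposite way and 1 the same way. Beyond the genes a naming rule gives, list members are given as examples chosen after their values were seen.

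Among genes measured in both groups the largest rise was that of Aqp5, a water channel of secretory epithelia. Aqp5 read 41242 and 26925 in PEA3-null samples 1 and 2 and 194, 192 and 392 in normal glands 1 to 3, a difference of 120.0-fold (log2 6.91, SE 0.27, limma adjusted p = 1.15e-08). Aldoc, the glycolytic aldolase C, read 27416 and 22058 against 574, 557 and 448 (44.3-fold; log2 5.47, SE 0.18, limma adjusted p = 1.20e-08). The receptor gene Notch4 read 9731 and 10719 against 239, 390.1 and 207 (34-fold) at its only tested probe set, whose match to related sequences was not checked. The rule that named these 3 genes required groups that do not overlap. Groups did not overlap, in either direction, for 53.4% of all probe sets tested. Cldn3, a tight junction claudin, read 12105 and 13776 against 519.5, 485 and 549 (23.6-fold). Ier3, an early response gene, read 14206 and 13915 against 552, 478 and 364 (28.7-fold), and Kcnn4, a calcium-activated potassium channel, 14463 and 12643 against 493, 644 and 619 (22.1-fold). The remaining 4 of the 10 largest rises were those of the calcium-binding protein gene Ncald (log2 4.89), the whey acidic protein family gene Wfdc18 (4.56), the mitotic kinase gene Pbk (4.52) and the acyl-CoA ligase gene Acsl4 (4.32). The PEA3-null samples differed most in Pbk, at 8227 and 2980.0 against 136, 388 and 112.

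Genes whose normal signal averaged under 150 rose from a dim level, and their folds depend on the added constant. The cartilage collagen gene Col9a1 read 28735 and 13953 against 115, 89.0 and 206 (log2 6.95), the secreted carbonic anhydrase gene Car6 3449.6 and 3166 against 53.7, 22.4 and 28.6 (5.67), and the neuropeptide gene Npy 5669 and 8064 against 75.1, 205 and 144 (5.37). Spag5, a mitotic spindle gene, Shf, an adaptor gene, and Mia, a secreted cartilage protein gene, rose by 5.11, 4.99 and 4.88 on the log2 scale.

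**Figure D1:**
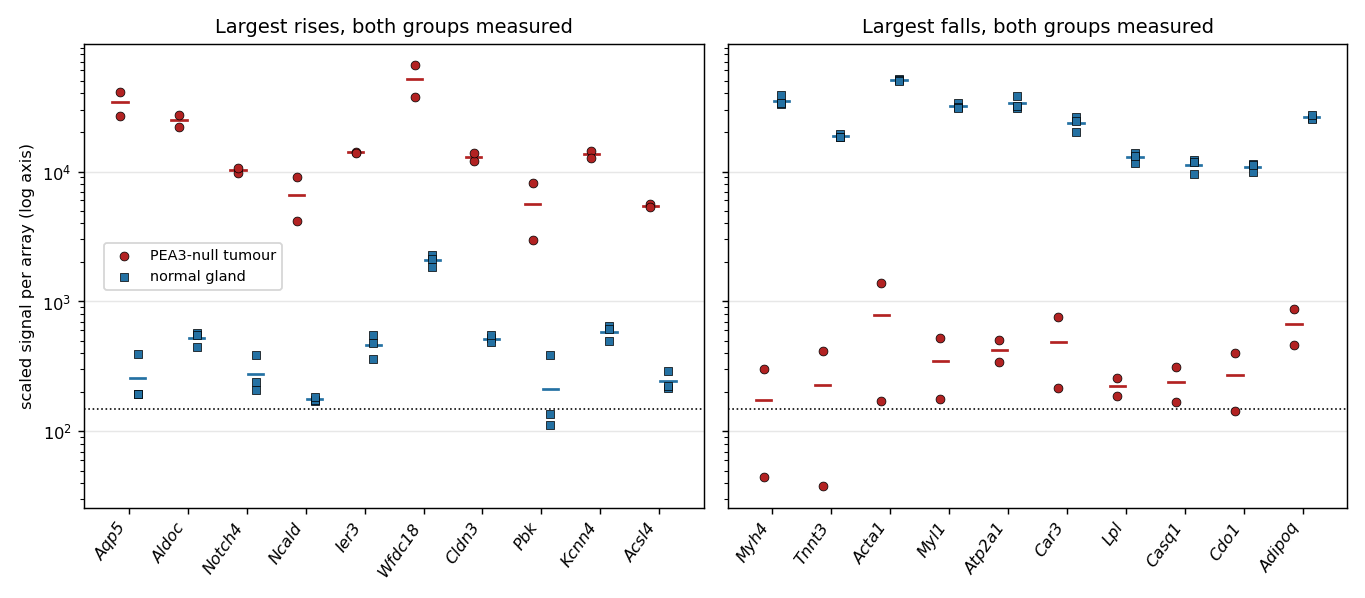
Scaled signal per array on a log axis for the 10 largest rises (left) and the 10 largest falls (right) among genes with a mean of at least 150 in both groups. Each point is 1 array (2 PEA3-null, 3 normal), bars are group means and the dotted line is the signal of 150. The naming rule took only genes whose groups do not overlap, which held for 53.4% of all tested probe sets. Sample 2 is the higher PEA3-null point in all 10 falls.

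Skeletal muscle genes made up 6 of the 10 largest falls. Of 24 measured contractile genes 21 fell and 0 rose (87.5%, median log2 difference -4.30), and of 20 genes of muscle metabolism and calcium handling 19 fell and 0 rose (-3.95). Acta1, skeletal muscle actin, read 173 and 1387 in the tumours and 51620.2, 50240.3 and 50135 in normal glands (log2 -6.56, SE 0.63, limma adjusted p = 1.94e-05). Myh4, a fast myosin heavy chain, read 44.4 and 302 against 33309, 33732 and 38513 (log2 -7.78, SE 0.57, limma adjusted p = 2.60e-06), and Tnnt3, fast troponin T, 37.7 and 415 against 19388, 18561 and 18413 (-6.74). Normal glands agreed within a narrow range for these genes, while the PEA3-null samples lay far apart at a low level. Summed over the contractile list, the signal was 2844 and 6768 in the tumours and 200137, 205565 and 208974 in normal glands, which carry the same label of a sort for Sca-1-positive cells.

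Genes of the calcium store and of muscle energy supply fell as far. Atp2a1, the calcium pump of fast fibres, read 340.2 and 502 against 30606, 38305 and 31720.0 (-6.23), and Casq1, its calcium-storing partner in the reticulum, 167 and 315 against 9607, 12347 and 11789 (-5.41). Pygm, muscle glycogen phosphorylase, read 31.4 and 119 against 10068, 11078 and 9201 (-6.69), Ckm, muscle creatine kinase, 30.6 and 45.6 against 5266, 6037 and 6270.4 (-6.40), and Pvalb, the calcium buffer of fast fibres, 961 and 2414 against 23276, 23018 and 24281 (-3.92). From the fibre's contractile and energy genes with a tumour mean under 150, Actn3 (-6.93), Myh1 (-6.67), Pgam2 (-6.42) and Cox6a2 (-6.30) were among the largest falls. Slow-fibre genes fell too: Myh7 read 81.4 and 82.0 against 1000.0, 952 and 829 (-3.07) and Tnnt1 46.4 and 67.0 against 1538, 1214 and 1594 (-4.06). PEA3-null sample 2 read higher than sample 1 for 20 of the 24 contractile genes, 8 of them by at least 2-fold (33.3%, against 12% of all genes). In bulk RNA, fewer muscle fibres and less RNA per fibre cannot be told apart. Without normal glands 1 and 2 the counts of falls were 12 of 24 and 12 of 20.

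Fat genes fell next. Of 25 measured adipocyte genes 22 fell and 0 rose (median -3.29, 15 falling without normal glands 1 and 2). Adipoq, which encodes adiponectin, read 459.6 and 874 against 25830.2, 25474 and 27015 (log2 -5.29, SE 0.25, limma adjusted p = 1.40e-07), and Retn, which encodes resistin, 194 and 50.6 against 8962, 9449 and 9441 (-6.09). Lpl, the lipase that releases fatty acids from lipoproteins, read 188 and 259 against 11630.0, 13819.6 and 13100.1 (-5.67), and Pparg, the nuclear receptor of fat cell differentiation, 18.9 and 153 against 1177, 1435 and 1428 (-3.82). The carbonic anhydrase gene Car3, which fat and muscle express, read 216 and 758 against 20047, 26135 and 24644 (log2 -5.73, SE 0.37, limma adjusted p = 9.60e-07). These 5 genes were at 18.9 to 874 in the tumours and above 1000 in every normal gland, and the list's summed signal was 10994 and 14434 against 141789, 164024 and 158225. Smaller differences came from Lep, the leptin gene, at 600.2 and 767 against 1443, 2597 and 1486 (-1.35), and Fabp4, a fatty acid carrier, at 633 and 267 against 1044, 979.7 and 1227 (-1.32). Ucp1, the uncoupling protein of brown fat, read 53.6 and 40.1 against 1752, 2153 and 1667 (-4.58), and 5 of 7 brown fat genes fell (2 without normal glands 1 and 2).

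Lipid enzymes followed in both directions of metabolism. Of 20 fatty acid synthesis genes 15 fell and 2 rose (median -1.76). Fasn, fatty acid synthase, read 927 and 1559 against 18864, 24818 and 22013 (log2 -4.14, SE 0.22, limma adjusted p = 2.28e-07), Acaca, which makes its malonyl-CoA, 918 and 1114 against 10124, 20080.4 and 14562 (-3.79), and Thrsp, a lipogenic regulator, 903 and 1215 against 15529, 14694 and 12689 (-3.73). The pair that rose were Srebf1, the sterol-regulated transcription factor, at 13498 and 16195 against 6535, 7708 and 6566 (1.09), and Fads2, a desaturase, at 1681 and 2022 against 703, 699.8 and 702 (1.35), named after their values were seen. Thus the factor read higher and most of the listed enzymes read lower. Of 17 fatty acid oxidation genes 15 fell and 0 rose (median -1.70), among them Hadhb, a subunit of the mitochondrial trifunctional protein, at 2217 and 1984 against 14561, 13389.5 and 13456 (-2.70). Of 16 cholesterol synthesis genes 1 rose (2 without PEA3-null sample 2) and 2 fell, with the synthase gene Hmgcs1 at -1.38 and the reductase gene Dhcr7 at 1.54.

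Mitochondrial energy genes fell by less. Of 18 citrate cycle genes 14 fell and 0 rose (median -1.44), and of 24 respiratory chain genes 13 fell and 0 rose (median -0.58, 7 falling without normal glands 1 and 2). Cs, citrate synthase, read 1067 and 1114 against 5801, 6998 and 5915 (-2.48), and Sdhb, a subunit of succinate dehydrogenase, 2639 and 2019 against 7163, 6952 and 6688 (-1.57). The chain genes that fell were spread over complexes, such as Ndufs1 of complex I (-1.84) and Uqcrc1 of complex III (-1.06). Glycolysis genes were divided, with 5 of 16 rising and 3 falling (median 0.15). Isoforms went opposite ways: Aldoc rose while the muscle-rich aldolase gene Aldoa, at 22980.2 and 21890.5 against 40555, 39818 and 38824, fell by 0.82 on the log2 scale. The hexokinase gene Hk1 rose (17222 and 15310.5 against 6302, 4118 and 4619.9, 1.71), whereas Hk2, the form of insulin-sensitive tissue, fell (241 and 89.4 against 2187, 2801 and 2190.0, -3.73). The count of glycolysis genes that rose was 2 without PEA3-null sample 1 and 3 without normal gland 3. Slc1a5, a glutamine transporter, read 131 and 39.1 against 2249, 3029 and 2606 and fell (-4.62), and Slc7a5, a transporter of large neutral amino acids, rose (1433 and 2459 against 810.3, 630.3 and 867, 1.27).

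**Figure D2:**
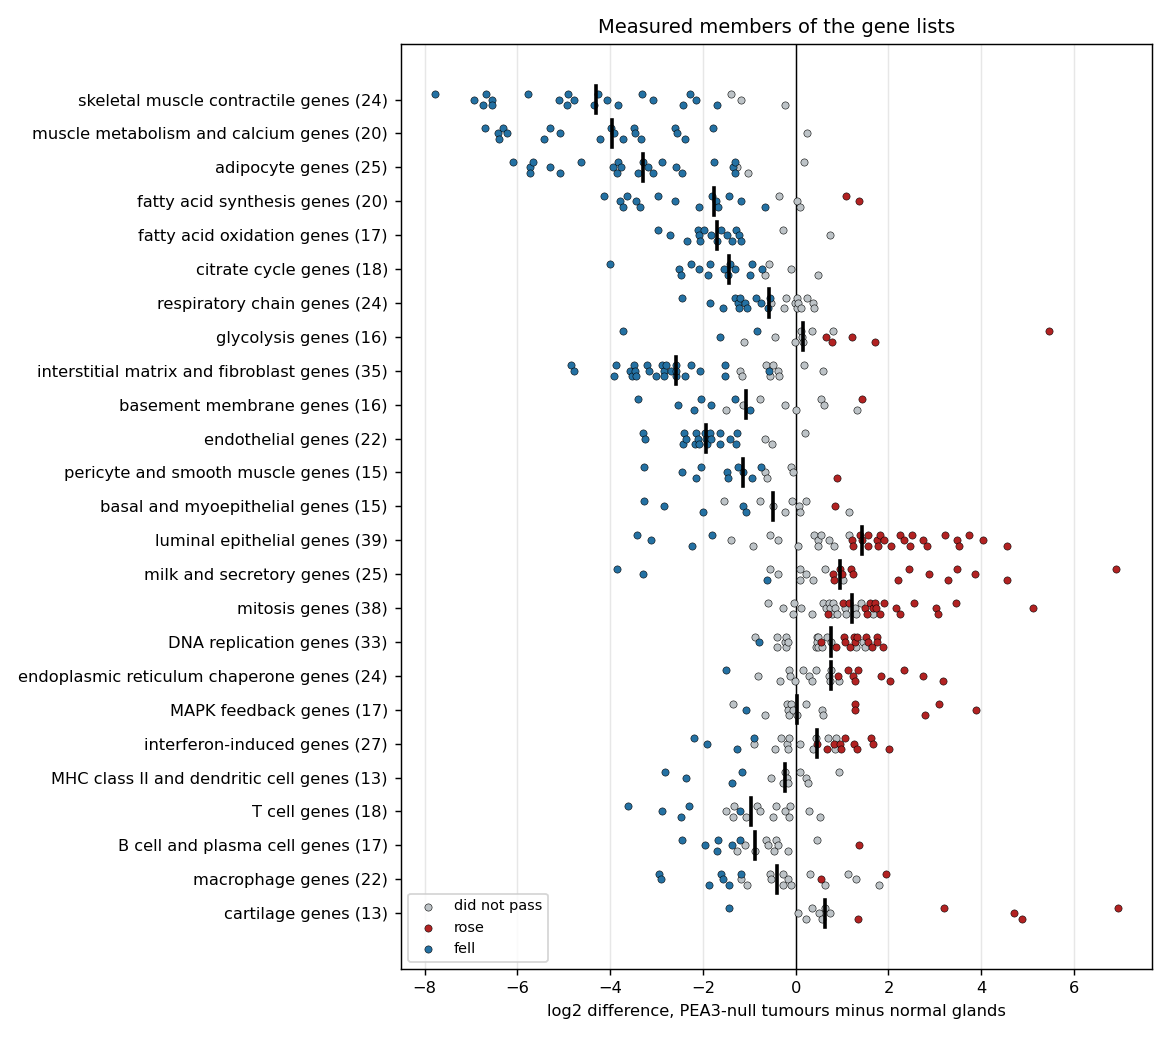
Log2 difference of PEA3-null tumours minus normal glands for each measured member of 25 gene lists, with the number measured in parentheses. Points are genes, coloured by whether they rose, fell or did not pass, their height within a row carries no meaning, and black bars are list medians. Muscle, adipocyte and fibroblast medians lie between -4.30 and -2.59, and luminal and mitosis medians at 1.44 and 1.21.

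Connective tissue genes were lower in the tumours. Of 35 interstitial matrix and fibroblast genes 26 fell and 0 rose (median -2.59, 20 falling without normal glands 1 and 2). Dcn, the proteoglycan decorin, read 1014 and 1904 against 22136, 20574 and 21274 (log2 -3.91, SE 0.24, limma adjusted p = 8.02e-07), and Lum, lumican, 254 and 55.3 against 4793, 4756 and 3950.5 (-4.84). Gsn, the actin-severing gelsolin, read 868 and 1356 against 30451, 30817 and 30267 (-4.77). The fibrillar collagens fell unevenly: Col1a1 read 472 and 258 against 3082, 4867 and 4946 (-3.47), Col3a1 589.7 and 583 against 3316, 5387 and 4294 (-2.79), and Col1a2 1231 and 1596 against 2046, 2010.0 and 2294 (-0.58). Pdgfra, a receptor of fibroblasts, fell at its brightest probe set (-3.54). Of 16 basement membrane genes 7 fell and 1 rose, with the collagen IV chains Col4a1 (-2.03) and Col4a2 (-2.19) falling and Col4a5 rising (253 and 366 against 98.7, 92.2 and 88.6, 1.43). That rise did not pass with either PEA3-null sample or any 1 normal gland left out.

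Vessel genes fell with the matrix. Of 22 endothelial genes 19 fell and 0 rose (median -1.93), 12 without PEA3-null sample 2 and 4 without normal glands 1 and 2. Cdh5, VE-cadherin, read 208 and 42.6 against 1053, 1234 and 1449 (log2 -3.24, SE 0.49, limma adjusted p = 0.00053), and Eng, the co-receptor endoglin, 784 and 1006 against 2099, 2809 and 2396 (-1.41). Of 15 pericyte and smooth muscle genes 10 fell and 1 rose, 6 falling without normal gland 3. Acta2, smooth muscle actin, which also marks myoepithelium, read 195 and 344 against 2525, 2705 and 3099 (-3.26), and Cald1, the actin-binding caldesmon, was the one that rose (0.90). Among 15 genes of matrix proteases and their inhibitors 7 fell and 1 rose. Timp3, a matrix-bound inhibitor, read 257 and 329 against 3756, 3306 and 3951 (-3.51), stromelysin gene Mmp3 95.0 and 43.7 against 666, 555 and 599 (-2.70), and the membrane-type protease gene Mmp16 rose (1858 and 591 against 191, 335 and 122, 2.22). Without normal glands 1 and 2 the falls were 3 basement membrane, 4 pericyte and 4 protease or inhibitor genes.

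Leukocyte lists had smaller medians, with 27.8% of T cell, 35.3% of B cell and 31.8% of macrophage genes falling against 15.2% of all genes. Without normal glands 1 and 2 the falls were 2 T cell, 3 B cell and 2 macrophage genes. Of 18 T cell genes 5 fell and 0 rose (median -0.96), among them the chemokine gene Ccl5 at 106 and 382 against 3705, 2282 and 2875 (log2 -3.61, SE 0.46, limma adjusted p = 0.000169) and the receptor chain gene Cd3e at 53.8 and 65.1 against 710.1, 345 and 292 (-2.30). Of 17 B cell and plasma cell genes 6 fell and 1 rose, 3 falling without PEA3-null sample 1. Ighm, the immunoglobulin mu chain, read 416 and 806 against 3268, 3789 and 3013 (-2.46), and Jchain, the joining chain of secreted antibodies, rose from 215, 220.4 and 224 to 499.9 and 771 (1.38), though not without PEA3-null sample 2. Of 13 class II and dendritic cell genes 4 fell (2 without PEA3-null sample 1) and 0 rose (1 without PEA3-null sample 2 or normal gland 1), with Cd74, the class II chaperone, at 1578 and 2867 against 14215, 14755 and 16385 (-2.81).

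Of 22 macrophage genes 7 fell and 2 rose, 1 rising without PEA3-null sample 2 or any 1 normal gland. Csf1r, the receptor for macrophage growth factor, read 438 and 799.9 against 2133, 2291 and 2326 (-1.87) and Mrc1, the mannose receptor, 111 and 36.2 against 669.7, 834 and 629 (-2.90). C1qa, a complement C1q chain made by macrophages, went the other way at 4246 and 5356 against 1517, 1209 and 973 (log2 1.95, SE 0.24, limma adjusted p = 0.000126), as did C1qb (0.55). Of 16 complement genes 6 fell and the same pair rose, C1qa alone in those fits, and those that fell included Serping1, the C1 inhibitor, at 344 and 746 against 9023, 10653 and 8471 (-4.12). The mast cell protease genes Cma1 (209 and 255 against 2179, 1882 and 2348, -3.04) and Tpsb2 (-2.16) fell, while Kit, the stem cell factor receptor of mast cells and luminal progenitors, rose (1152 and 1475 against 415, 364 and 497, 1.56). Of 6 erythroid genes none passed in either direction by limma, and 1 had an unadjusted p under 0.05, with adjusted p of 0.084 for the anion exchanger gene Slc4a1 (148 and 122 against 331, 329 and 246) and 0.594 for the factor gene Klf1 (0.48). Without PEA3-null sample 1, 1 rose and 1 fell.

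Luminal epithelial genes were the main group that rose. Of 39 measured, 23 rose (59.0%) and 4 fell (2 without normal gland 3), with a median of 1.44, and 19 rose without normal glands 1 and 2. Beside Cldn3, the adhesion gene Epcam read 4347 and 3833 against 425, 353 and 468 (log2 3.21, SE 0.18, limma adjusted p = 3.43e-07), the claudin gene Cldn7 2412 and 2794 against 181, 183 and 229.7 (3.52), and the membrane protease gene St14 8834 and 7781 against 492, 579 and 735 (3.73). In these genes the PEA3-null samples lay close together. Lcn2, the iron-siderophore binding lipocalin, rose 11.1-fold (38705 and 55752 against 4875, 4061 and 3588). Keratins of simple epithelium rose by less: Krt18 read 10295 and 11553 against 1831, 1691 and 2192 (2.51), Krt8 6114 and 7135 against 1758, 1700.1 and 2428 (1.75), and Krt7 1237 and 1069 against 371, 392 and 341 (1.57). The luminal transcription factor genes Gata3 (1458 and 1868 against 633, 611 and 587, 1.39) and Elf5 (1.23), the latter a factor of milk-producing cells, rose modestly.

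Members of the luminal list did not all go one way. Krt19 read 95.2 and 272 against 2113, 1939.9 and 2167 and fell (-3.42), as did Foxa1, a partner of the oestrogen receptor, at 9.6 and 33.2 against 418, 406 and 433 (-3.11), and Aldh1a3 (-1.81). Spint1, a protease inhibitor, fell at its brightest probe set (-2.23). Spdef, an ETS factor of luminal cells, rested on PEA3-null sample 1, at 702 and 83.5 against 38.8, 26.8 and 22.3 (log2 2.26, SE 0.67, limma adjusted p = 0.0281), and did not pass in 7 of 19 alternative fits. Of 15 basal and myoepithelial genes 5 fell and 1 rose. The falls were 3 without normal gland 2 or 3 and 2 without both of normal glands 1 and 2, and the rise was lost without either PEA3-null sample or without normal gland 2 or 3. Those that fell included Acta2, given above, and Sfn, which encodes the 14-3-3 protein stratifin (76.4 and 41.4 against 240.3, 374 and 376, 3.99-fold lower). Esr1, the oestrogen receptor, fell (268 and 502 against 976, 1610.1 and 1156, -1.65), and of 11 hormone response genes 2 rose and 4 fell (2 without normal glands 1 and 2).

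Milk genes were higher in the tumours than in these glands. Of 25 milk and secretory genes 14 rose (56.0%) and 3 fell, with a median of 0.96 and 9 rising without normal glands 1 and 2. The kappa casein gene Csn3 read 44598 and 84685 against 15263, 13046 and 11620.3 (log2 2.21, SE 0.28, limma adjusted p = 0.00017), the beta casein gene Csn2 22858 and 39255 against 12989, 12631 and 13569 (1.20), and Lalba, alpha-lactalbumin of lactose synthesis, 8095 and 16419.6 against 1348, 1424 and 1883 (2.88). Wap, whey acidic protein, read 597 and 1419 against 50.6, 56.9 and 97.1 (3.28), and Csn1s2b, another casein gene, 359 and 867 against 3.65, 32.8 and 33.0 (3.48). Glycam1, a mucin-like milk protein, went against the list, falling from 8354, 5629.6 and 5307 to 206 and 788 (-3.84).

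The PEA3-null samples differed from each other in milk genes. Sample 2 read higher than sample 1 for 23 of the 25, with a median difference of 0.81 on the log2 scale against 0.01 over all genes, and no test applies to a single pair of samples. Relative to normal glands the list's mean log2 level was 0.77 in sample 1 and 1.58 in sample 2. Ltf, the iron-binding milk protein lactoferrin, differed most of all genes by the naming rule, at 753 in sample 1 and 15334 in sample 2 against 2581, 3774 and 3455 in normal glands, and did not pass (adjusted p = 0.952). Thus the samples lay on either side of the normal glands. Other genes with the widest gap were on chip B, where samples 1 and 2 do not share a scan day: Sdr42e1 read 1425 and 92.5, Rab27a 849.9 and 46.6, Zfp963 94.1 and 1374 and Slc22a8 50.8 and 864 in samples 1 and 2. Guf1 read 54.3 and 879, Golga1 1179 and 83.3 and Slc4a4 29.3 and 607, and of these only Slc4a4 passed against normal glands (1186, 1002 and 1237, -2.56).

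**Figure D3:**
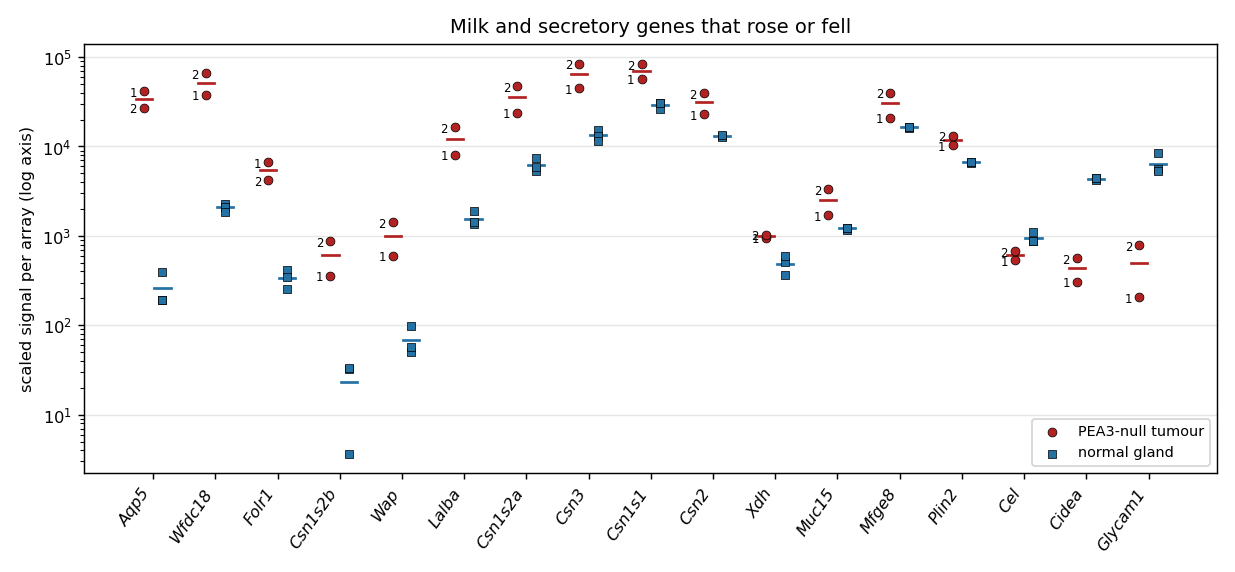
Scaled signal per array on a log axis for the milk and secretory genes that rose or fell, ordered by log2 difference. Points are arrays, numbered by PEA3-null sample, and bars are group means. Sample 2 lies above sample 1 for most genes, with Aqp5 and Folr1 the other way round.

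**Figure D4:**
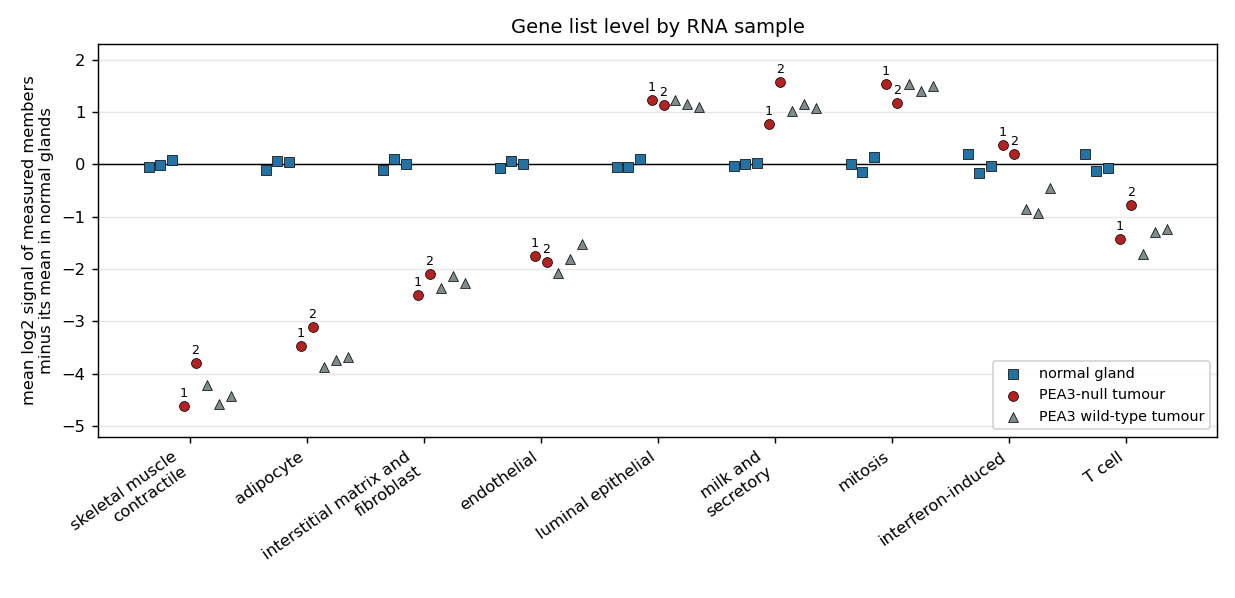
Mean log2 signal of the measured members of 9 gene lists in each RNA sample, minus the list's mean in normal glands. PEA3-null samples are numbered. Sample 2 lies above sample 1 for the muscle, adipocyte, fibroblast, milk and T cell lists and below it for the endothelial, luminal, mitosis and interferon lists.

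Cell division genes rose. Of 38 mitosis genes 18 rose (47.4%) and 0 fell, with a median of 1.21 and 11 rising without normal glands 1 and 2. Cdk1, the kinase that drives entry into mitosis, read 2372 and 1423 against 320.2, 66.2 and 283 (log2 3.08, SE 0.45, limma adjusted p = 0.000424), Ccnb2, a cyclin partner of it, 3318 and 2369.6 against 651, 468 and 712 (2.16), and Birc5, survivin of the chromosomal passenger complex, 579.9 and 736 against 98.1, 52.1 and 115 (2.55). Tumour arrays were above all normal arrays for each of them. Of all tested probe sets 53.4% had groups that did not overlap, in either direction. Of 33 DNA replication genes 14 rose and 1 fell (median 0.77), the fall being lost without PEA3-null sample 1 or normal gland 1, and the rises included the helicase subunit gene Mcm5 at 2659 and 2083 against 762, 494 and 623 (1.88) and the sliding clamp gene Pcna at 2852 and 1574 against 1441, 1012 and 1020.5 (0.87). The count of rises was 7 without PEA3-null sample 1 or normal gland 2, 9 without normal gland 3 and 5 without normal glands 1 and 2.

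Among cyclins and inhibitors of cyclin-dependent kinases 4 of 18 rose and 2 fell. Ccnd1, cyclin D1, read 1727 and 1679.6 against 763, 831 and 796 (1.07) and its kinase gene Cdk4 4012 and 4222 against 2203, 2024 and 1926 (1.00). The inhibitor genes went both ways, with Cdkn1b rising 2.97-fold and Cdkn1c falling to 232 and 133 against 642, 578 and 595 (-1.61).

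Of 24 genes of endoplasmic reticulum folding and its stress response 10 rose and 1 fell (median 0.75, 8 rising without normal glands 1 and 2 and 2 falling without PEA3-null sample 2). Xbp1, a factor of the secretory apparatus, read 14182 and 10841 against 2241, 1834 and 1447 (log2 2.75, SE 0.20, limma adjusted p = 2.47e-06), the chaperone gene Hspa5 11198 and 8431 against 5176, 4287 and 3957 (1.12), and Sec61b of the translocation channel 3919.8 and 3233 against 816, 656 and 598 (2.33). Edem1, of the degradation branch, fell (739 and 811 against 2411, 2219 and 2123, -1.50). Antioxidant genes were divided, with 6 of 28 rising and 6 falling. Gpx3, the secreted glutathione peroxidase, read 1201 and 1568 against 22341, 21148 and 18546 (-3.88), Sod1, the cytosolic superoxide dismutase, 8276 and 8658 against 21925, 19953 and 19294 (-1.26), and Prdx4, the peroxiredoxin of the reticulum, rose (3828 and 2434 against 684, 364 and 668, 2.40).

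Genes of Her2/Neu signalling changed in a few members. Of 16 ErbB receptor, ligand and adaptor genes 4 rose and 4 fell, 1 falling without normal gland 2 and 2 without normal gland 3. Erbb3, the partner receptor of Neu, read 1311 and 1429.8 against 541, 626 and 832 (log2 1.03, SE 0.21, limma adjusted p = 0.00394), the adaptor gene Grb7 1625 and 1667 against 506, 556 and 716 (1.44), and Errfi1, a feedback inhibitor of the receptors, 3127 and 3757 against 1377, 1275 and 1421 (1.32). Ptpn11, the phosphatase SHP2, fell (1962 and 1585 against 5439.9, 6712 and 5772, -1.74).

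Feedback genes of the MAP kinase pathway, which are induced by its activity and restrain it, held several large rises. Of 17 measured 5 rose and 1 fell (median 0.02, 29.4% rising against 12.9% of all genes), and 5 rose also without normal glands 1 and 2. Dusp6, the ERK phosphatase, read 10354 and 8337 against 615, 599 and 576 (log2 3.89, SE 0.14, limma adjusted p = 2.38e-08), Spry2, Sprouty 2, 18447 and 9777 against 2116, 2212 and 1473 (2.80), and Phlda1 3522 and 2671 against 235, 316 and 496 (3.08). Dusp1, a phosphatase of stress kinases, fell (641 and 526 against 1000.5, 1463 and 1328, -1.06). Wild-type tumours read 8778, 8688 and 9270.4 for Dusp6, and the difference between the tumour groups did not pass (log2 0.06, SE 0.14, limma adjusted p = 0.921). Of 25 immediate early genes 5 rose and 2 fell, 4 falling without PEA3-null sample 2 and 1 without any 1 normal gland, with Ier3 as above, Junb at 1037 and 1110.0 against 219.7, 185 and 376 (1.97) and Klf4 falling (46.2 and 137 against 924, 995 and 927, -3.09).

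Of 21 ETS family genes 6 rose and 3 fell, 3 rising without PEA3-null sample 1. Etv5, given above, had the largest rise, Erf, an ETS repressor controlled by ERK, read 709 and 729 against 239.8, 233 and 404 (1.25), and Elk4, a partner of serum response factor, fell (726 and 563 against 2564, 3160.0 and 3842, -2.24). Of 17 genes described elsewhere as targets of PEA3 or its relatives 4 rose and 4 fell, 23.5% each way (2 each way without normal glands 1 and 2). Dusp6, Ccnd1, Fosl1 and the chemokine receptor gene Cxcr4 (348 and 288 against 108, 112 and 138, 1.21) rose, and Mmp3, Mmp14 (-1.64), Met (-1.40) and Twist1 (-2.66) fell. Fosl1, the AP-1 gene for Fra-1, read 235 and 355 against 36.2, 20.6 and 48.0 (log2 2.28, SE 0.50, limma adjusted p = 0.00618) and 26.3, 35.1 and 52.4 in wild-type tumours, a difference between tumours that did not pass (log2 2.22, SE 0.50, limma adjusted p = 0.155).

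The core letters bound by PEA3, searched as AGGAAG on both strands, stood in the window from 250 bases before to 50 after the start of 36.2% of 1216 genes that rose and 38.0% of 1428 that fell. The share was 37.3% of 9412 tested genes with a promoter in the RefSeq table and 38.4% of all 27025. Of 13 feedback genes with a promoter entry 6 held it. A match is a description of the letters. The windows of Dusp6 (chr10:99262981-99263280, plus strand), the feedback gene that rose most, and of Notch4 (chr17:34564045-34564344, plus strand), the Notch pathway gene that rose most, are printed from RefSeq, GRCm38.p6, 5′ to 3′, with the matches in capitals, read as CTTCCT where the match is on the other strand. Dusp6 holds 1 match and Notch4 holds 4.
Dusp6: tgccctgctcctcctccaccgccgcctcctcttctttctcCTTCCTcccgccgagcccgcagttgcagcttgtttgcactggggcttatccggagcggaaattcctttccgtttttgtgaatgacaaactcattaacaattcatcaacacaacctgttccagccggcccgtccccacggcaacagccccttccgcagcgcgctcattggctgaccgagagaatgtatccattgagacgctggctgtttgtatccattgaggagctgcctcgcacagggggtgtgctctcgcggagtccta
Notch4: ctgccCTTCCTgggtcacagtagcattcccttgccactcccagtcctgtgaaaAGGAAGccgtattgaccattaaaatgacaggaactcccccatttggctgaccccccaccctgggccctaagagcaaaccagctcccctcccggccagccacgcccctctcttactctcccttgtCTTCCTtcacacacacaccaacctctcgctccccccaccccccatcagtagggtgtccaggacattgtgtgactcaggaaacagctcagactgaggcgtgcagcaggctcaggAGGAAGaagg

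Pathways of development changed gene by gene. Of 17 Notch pathway genes 2 rose and 6 fell, 0 falling without normal glands 1 and 2. Hey1, a target of Notch, read 4647 and 3129 against 481, 459 and 574 (2.85) and rose with Notch4, while Notch1 (53.7 and 63.9 against 365, 393 and 380.4, -2.18) and the ligand gene Jag1 (133 and 126 against 769.7, 829.8 and 736, -2.33) fell. Wild-type tumours read 3473, 3288 and 4949 for Notch4, below both PEA3-null samples, and the difference between tumours missed the threshold (log2 1.40, SE 0.25, limma adjusted p = 0.0544). Of 21 Wnt pathway genes 0 rose and 6 fell, 3 without normal glands 1 and 2, with Axin2, a target of beta-catenin, at 116 and 112 against 677, 702 and 651 (-2.28) and Lef1 at 387 and 556 against 2134, 1591 and 1950.2 (-1.94). Of 29 TGF-beta and BMP genes 3 rose (1 without PEA3-null sample 2) and 8 fell, among the latter the receptor genes Tgfbr3 (1104 and 1799.9 against 10889, 11692 and 11198, -2.97) and Tgfbr2 (-1.87), whereas the ligand gene Tgfb3 rose (2844 and 3198 against 1059.6, 1046 and 1409.6, 1.35). Of 12 insulin-like growth factor genes 1 rose and 4 fell (median -0.38). Igf1, the factor made by stroma, read 70.0 and 785 in samples 1 and 2 against 5116, 5857 and 5052 (-4.21), and Igfbp6, which binds these factors, 80.0 and 64.8 against 3714, 3199 and 3864 (-5.12).

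Genes named for other tissues also rose. Of 13 cartilage genes 5 rose, and 1 fell that did not pass with either PEA3-null sample or any 1 normal gland left out. Beside Col9a1 and Mia, Scrg1 read 1315 and 1125 against 9.2, 17.2 and 21.6 (4.71) and the collagen gene Col11a1 559 and 859 against under 100 in every normal gland (3.19). The other that rose, Col9a3, read 1103 and 978 against 480.4, 305 and 409 (1.34), and the 7 members that did not pass had differences within 1 on the log2 scale. Of 8 salivary gland genes 4 rose and 1 fell, 2 rising without PEA3-null sample 1 or normal gland 3. Aqp5 and Car6 were among them, and Amy1, amylase, fell (53.9 and 155 against 1809.5, 1443 and 1483, -3.66). Pmp22, a myelin gene, fell (406 and 361 against 2931, 3297 and 2825, -2.88), while the neural crest factor gene Sox10 rose (3795 and 5182 against 2469.6, 2635 and 2542, 0.79). Of 14 Schwann cell and nerve genes 2 rose and 3 fell, 1 falling without normal gland 2 or 3.

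Interferon-induced genes went both ways against normal glands. Of 27 measured, 11 rose (40.7%) and 4 fell, with a median of 0.45. The count that rose was 7 without PEA3-null sample 1 and 4 without normal glands 1 and 2, and the count that fell was 2 without normal gland 1 or 3. Irf7, the factor that amplifies the response, read 2469 and 3412 against 827, 809 and 1079.8 (log2 1.66, SE 0.20, limma adjusted p = 0.000103). The deconjugating enzyme gene Usp18, whose substrate is the Isg15 modifier, read 2154 and 2065 against 713, 386 and 454 (2.01), and Bst2, the virus-tethering protein tetherin, 9538 and 5748 against 3268, 2341 and 3387 (1.31). Isg15, a ubiquitin-like modifier, read 2156 and 1852 against 928, 919.5 and 975 (1.06). Genes of antigen processing rose with them, Tap1, a peptide transporter, by 0.96, Psmb9 by 1.26 and Psmb8 by 0.83, the latter pair being subunits of the immunoproteasome. Ifi204 (150.5 and 212 against 1091, 870.0 and 872, -2.20), a nucleic acid sensor, and Gbp2 (-1.27), a GTPase, fell. Ifitm3, a membrane protein that restrains virus entry, read 14116 and 14992 against 11514, 9585 and 10886 and passed narrowly (log2 0.45, SE 0.15, limma adjusted p = 0.0482), missing the threshold in 15 of 20 alternative fits.

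Wild-type tumours read lower than PEA3-null tumours past the threshold for part of this list, in a contrast that shares the PEA3-null arrays with the one above. Against normal glands, 9 of the 27 listed genes were lower in wild-type tumours and 2 higher at the same threshold (median log2 -0.56). The shares of all genes in that comparison are not given here. In all, 37 of 19214 probe sets differed between the tumour groups (0.193%), and 10 of the 27 listed genes were higher in PEA3-null tumours and 0 lower. Usp18 read 326, 403 and 502 in wild-type tumours 1 to 3 (log2 2.29, SE 0.27, limma adjusted p = 0.0113). Isg15 read 652, 414 and 911 (log2 1.62, SE 0.27, limma adjusted p = 0.0404) and Bst2 1733, 2237 and 3275 (log2 1.65, SE 0.29, limma adjusted p = 0.0404). For Usp18 the wild-type tumours overlapped the normal glands and for Isg15 they lay below them, while both PEA3-null samples lay above both groups. Oasl2, related to an antiviral RNA sensor, followed another order: PEA3-null tumours read 3894 and 4278, normal glands 3234, 3089 and 3072 and wild-type tumours 1099.6, 888 and 1257. Its difference between tumours passed (log2 1.90, SE 0.20, limma adjusted p = 0.00232) and that from normal glands did not (log2 0.38, adjusted p = 0.197). Gbp3, a GTPase, read 1356 and 912 in PEA3-null tumours, within or below the normal range (1336, 1042 and 1371), and 241, 284 and 375 in wild-type tumours. Ifit3, an antiviral gene, read 869.7 and 801 in PEA3-null tumours, just above normal gland 1 (710.4, 347 and 353 in all), and 80.3, 132 and 138 in wild-type tumours.

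The count of 10 depended on single samples and on the model. It was 1 without wild-type tumour 1, 2 without wild-type tumour 2, 5 without PEA3-null sample 2, 4, 6 and 3 without normal gland 1, 2 and 3, and 0 without the mean-variance trend. With the replicate block or with array weights it was 1, and with only the tumour groups fitted it was 3. Of the 27 genes 26 read higher in PEA3-null tumours on average, and 23 to 26 did so with any 1 sample left out. The share of all genes that read higher is not given here, so these counts lack a background. On chip A all tumour arrays share a scan day, and that chip fitted alone gave 8 of 22 genes higher. On chip B the tumour groups differ in scan day and chip lot, and it gave 2 of 5.

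**Figure D5:**
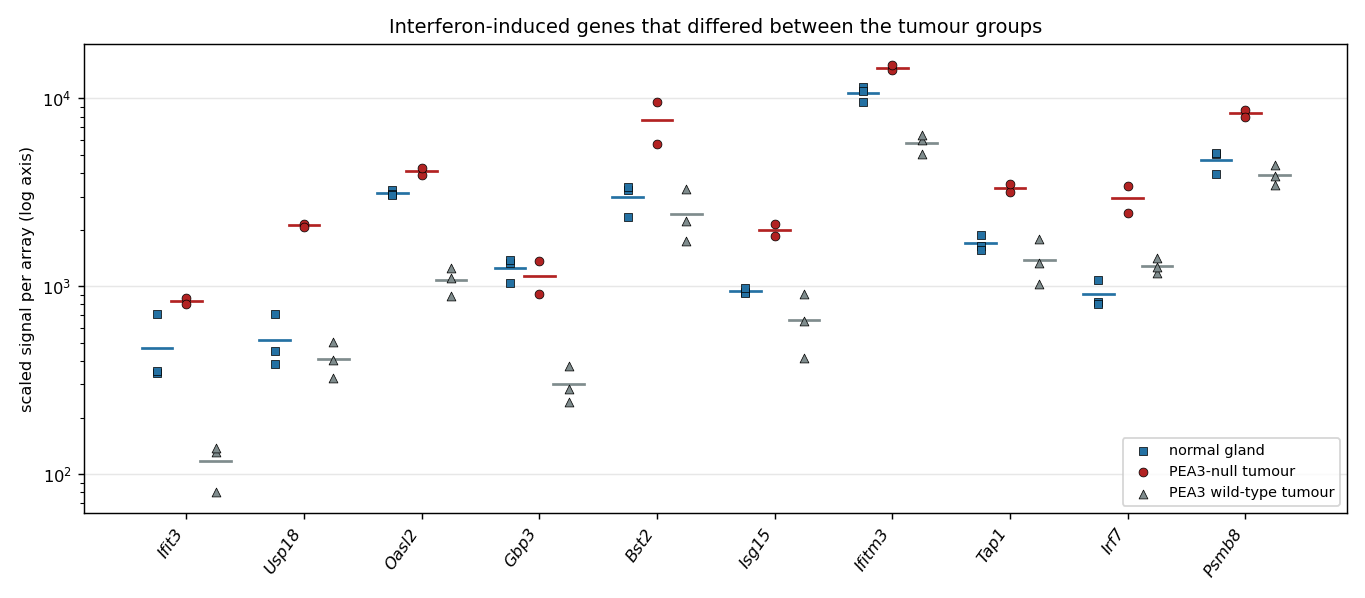
Scaled signal per array on a log axis for the 10 interferon-induced genes that differed between the tumour groups, in 3 normal glands, 2 PEA3-null tumours and 3 wild-type tumours, with bars at group means. The 10 genes were chosen by this difference, so PEA3-null points lying above the wild-type points is no separate result. For Gbp3 the PEA3-null points overlap the normal glands.

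The letters of the interferon-stimulated response element, searched as GAAA, a pair of any bases and GAAA on both strands, stood in the promoter window of 12 of the 22 listed genes with an entry (54.5%). The share was 3.7% of tested genes and 4.0% of all genes in the table, and 5 of 9 listed genes that were higher than in wild-type tumours held it (55.6%). The windows of Isg15 (chr4:156200769-156201068, minus strand), Bst2 (chr8:71537423-71537722, minus strand) and Ifitm3 (chr7:141010695-141010994, minus strand) are shown because they hold matches in genes that passed both contrasts. They are from RefSeq, GRCm38.p6, 5′ to 3′, with matches in capitals. In Isg15 3 matches overlap from 78 bases before the start, in Bst2 2 overlap from 130 bases before it, and in Ifitm3 2 separate matches lie just after it. The windows of Irf7, Tap1 and Psmb8 held no match to these letters.
Isg15: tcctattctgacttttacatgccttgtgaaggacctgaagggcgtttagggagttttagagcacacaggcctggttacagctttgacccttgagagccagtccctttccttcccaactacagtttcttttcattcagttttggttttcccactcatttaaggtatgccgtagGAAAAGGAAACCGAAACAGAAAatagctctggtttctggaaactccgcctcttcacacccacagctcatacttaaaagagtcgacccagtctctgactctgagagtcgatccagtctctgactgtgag
Bst2: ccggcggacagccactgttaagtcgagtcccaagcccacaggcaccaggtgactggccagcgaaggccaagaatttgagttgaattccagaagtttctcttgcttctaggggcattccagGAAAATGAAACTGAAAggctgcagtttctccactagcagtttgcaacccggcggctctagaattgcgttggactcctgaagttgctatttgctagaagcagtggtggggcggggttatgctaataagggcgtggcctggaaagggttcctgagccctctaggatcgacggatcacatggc
Ifitm3: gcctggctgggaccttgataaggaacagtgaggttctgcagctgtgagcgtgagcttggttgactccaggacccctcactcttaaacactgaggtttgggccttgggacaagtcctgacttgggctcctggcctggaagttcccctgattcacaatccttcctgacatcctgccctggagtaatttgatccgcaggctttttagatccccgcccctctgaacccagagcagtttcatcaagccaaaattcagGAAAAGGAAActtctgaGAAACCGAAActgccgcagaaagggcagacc

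Other genes that passed both against normal glands and between tumours were few. St6galnac2, a sialyltransferase, read 3077 and 4401 in PEA3-null tumours, 426, 308 and 327 in normal glands and 784, 551 and 1448 in wild-type tumours, and rose against normal glands (log2 3.28, SE 0.34, limma adjusted p = 3.23e-05). Ccl24, an eosinophil chemokine, read 121 and 191 in PEA3-null tumours against 2083, 1712 and 1583 in normal glands and fell (-3.29), with wild-type tumours in between (702, 526 and 639). Glb1l2, related to beta-galactosidase, read 118 and 148 against 968, 845 and 1125 and fell (-2.61), with 635, 951 and 624 in wild-type tumours. Miga2, a mitochondrial fusion gene, fell from 269.7, 260.5 and 278 in normal glands to 142 and 60.1 (-1.25), a call lost without PEA3-null sample 2 or any 1 normal gland, and wild-type tumours read above both (531, 455 and 425). Car3 and Tnnc2, fast troponin C, lay far below normal glands in both tumour groups but less so in PEA3-null tumours: Tnnc2 read 268 and 537 in these, 52.1, 48.1 and 129.7 in wild-type tumours and 13882, 14214 and 14091 in normal glands.

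On chip C, PEA3-null sample 1 stood alone against 3 normal glands. Across probe sets its log2 signals correlated with wild-type tumours 1 and 2 at 0.691 and 0.718 (Pearson). Those tumours correlated with normal gland 1 at 0.738 and 0.730 on this chip. On chip A the tumours' values were 0.890 and 0.913 with PEA3-null sample 1 and 0.688 and 0.701 with normal gland 1. The lone array shared its scan day with no other array of chip C, and its own part in the differences below was not tested. Of 8924 probe sets 6.11% (545) were at least 4-fold higher and outside the normal range and 4.42% (394) at least 4-fold lower. After quantile normalization the balance turned to 464 higher and 568 lower, with medians set equal to 381 and 531, and with an added constant 4 times as large 331 were past the threshold in all. Comp, a cartilage matrix protein, read 9807 against 139.7, 137 and 195 (log2 5.71), and Cnmd, chondromodulin of cartilage, 9729.5 against 113, 579 and 816 (4.53). Also higher were Bricd5 (36309 against 1352, 1731 and 1592), Cd177, a neutrophil surface gene (6671 against 221, 396 and 197), Bcl2l14 (4.06), Nipal2 (4.37), Acp1 (4.16) and Tle6 (3.90). Normal glands lay far apart for Cnmd, Nipal2, Acp1 and Tle6. On chips A and B, where Acp1 has another probe set, its difference was 0.034 and did not pass (limma adjusted p = 0.928). The lower genes included the muscle genes Ckm (561 against 19109, 24121 and 29971, -5.34), Mylpf (-4.79) and Myom2 (-4.62). F13a1, a clotting factor subunit of macrophages (-4.64), C1qtnf9, an adiponectin relative (-4.41), Slc1a5 (-4.65), Fads3 (-4.65) and Fam219a (-3.88) were also lower.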

How the data were processed

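The authors deposited MAS5 signal intensities, 1 value per probe set and array, made from biotin-labelled total RNA per the labels; the MAS5 version is not given in the submitters' processing notes. Control probe ratios were taken from these intensities. Instrument report files deposited with them gave scan days, chip lots and the record of aborted washes. Deposited trimmed means were 1500.28 to 1501.06. Each array's intensities were rescaled to a trimmed mean of 500 (2% cut at each end), 32 was added and log2 taken. The 198 control probe sets were left out of 36701 others, of which 29131 carry 1 symbol in the platform annotation, 724 several and 6846 none, and 29044 were matched to the RefSeq table by gene identifier.

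Probe sets reaching 150 on 2 arrays were fitted per chip with limma 3.58.1 (R 4.3.3; lmFit, eBayes with trend) over all 3 groups, which share 1 estimate of spread, and adjusted by Benjamini-Hochberg over chips A and B at 0.05. A gene was represented by its probe set of highest mean log2 signal over the PEA3-null and normal arrays. The script was tested on simulated data. Tables and plots used Python 3.11.15, pandas 2.3.3 and matplotlib 3.10.9.

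The comparison, its 48 gene lists and the naming rules were chosen with earlier results of these data known. The rules named the 10 largest rises and falls with both means at least 150 and the 6 largest with a dimmer group. These were taken from genes past the threshold whose PEA3-null and normal arrays do not overlap. Further rules named up to 4 members of each list, the genes of the labels and the 8 largest differences between PEA3-null samples. The last named up to 10 genes past both thresholds, and 8 rises and falls on chip C with both means at least 150. Lists in which few members moved and which are not described above are integrin (1 of 14 rose, 0 without PEA3-null sample 2 or any 1 normal gland, and 3 fell), ribosome biogenesis (4 of 22 rose, 1 without PEA3-null sample 1 and 2 without normal gland 1 or 2, and 1 fell, 0 with any 1 PEA3-null sample or normal gland left out), keratinocyte (2 of 11 rose, 0 without either PEA3-null sample or normal gland 1 or 2 and 1 without normal gland 3, and 0 fell) and amino acid metabolism (3 of 17 rose, 3 fell). PEA3-null samples and normal glands of the same number did not deviate together, and wild-type tumours were not checked for this. The replicate block is given only among the alternatives. These also covered normalization, the added constant, the filter, the trend, robust and weighted fits, each chip alone and each sample left out.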

Additional observations from a re-analysis of the deposited data

Results flagged for a closer look

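In 16 genes named above the PEA3-null and wild-type tumours differed by the limma test of the difference between genotypes. The interferon-induced genes were higher in PEA3-null tumours, by 2.57 for Ifit3 (adjusted p = 0.0224), 2.29 for Usp18, 1.90 for Oasl2 (0.00232), 1.80 for Gbp3, 1.65 for Bst2, 1.62 for Isg15, 1.33 for Ifitm3, 1.29 for Tap1, 1.16 for Irf7 (0.0478) and 1.09 for Psmb8 on the log2 scale. In all 10 of them both PEA3-null samples read above all 3 wild-type tumours. They were chosen by that same test, so this is no separate support. The share of all probe sets whose tumour groups do not overlap is not given here, so the count also lacks a background. Under the 22 alternative settings Oasl2 passed in 20, Ifitm3 in 17, Usp18 in 16, Ifit3 and Gbp3 in 12, Psmb8 in 9, Bst2, Isg15 and Tap1 in 8 and Irf7 in 4, and each kept its sign.

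Car3 (2.47), St6galnac2 (2.06) and Tnnc2 (2.01) were also higher in PEA3-null tumours, and passed in 8, 8 and 9 of those settings. Car3 and Tnnc2 lay in PEA3-null sample 2 above sample 1, at 758 against 216 and 537 against 268. Ccl24 (-1.81), Miga2 (-1.98) and Glb1l2 (-2.20) were lower and passed in 8, 4 and 10 settings.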

How the results depend on the processing

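Of the 4751 probe sets that differed from normal glands, 1445 rose and 1348 fell on chip A. On chip B 909 rose and 1049 fell. Counts from a chip fitted alone compare with these and not with 4751. The whole count stayed within 1.5 times under most alternatives (3438 to 5002), with 3438 to 4914 when 1 sample was left out. It was 1711 (1030 higher, 681 lower) with normal glands 1 and 2 left out, where the lone normal gland is assumed to vary like the other groups, 953 with a minimum log2 difference of 1, and 3020 and 1726 on chips A and B alone. The 37 probe sets that differed between tumour groups depended on the processing: 15 without a filter and on chip B alone, 6 with only those groups fitted, 5 without normal glands 1 and 2, 4 without the mean-variance trend, 3 with array weights and 1 with a minimum log2 difference of 1. Leaving out 1 sample gave 3 (wild-type tumour 1) to 239 (PEA3-null sample 1). It also gave 6 without wild-type tumour 2 or normal gland 3, 18 without wild-type tumour 3, 9 without normal gland 1 and 13 without normal gland 2. The 37 are not split by chip here, so the 15 on chip B alone do not measure a shift. Apart from fewer samples or probe sets, the cause of the other shifts was not tested. Same-numbered PEA3-null samples and normal glands deviated with correlations of 0.067 and -0.009 on chip A and -0.014 and -0.049 on chip B. The deviations of the 2 PEA3-null samples mirror each other, and wild-type tumours were not part of this check. It therefore cannot decide whether the numbers pair samples. With the replicate block the counts were 3861 against normal glands and 3 between tumours.

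On chip C, 331 probe sets were past the threshold with an added constant 4 times as large, against 939. Of those, 545 were higher and 394 lower, against 464 and 568 after quantile normalization and 381 and 531 with medians set equal. Named genes were checked under the alternatives, apart from those named only for the gap between PEA3-null samples, such as Ltf. Of the genes checked, 3 changed sign without PEA3-null sample 2 and did not pass with it. They were Rrs1 from -0.92 to 0.077, Rhag from -0.65 to 0.14 and Klf1 from 0.48 to -0.67. Without PEA3-null sample 1 they read -1.91, -1.45 and 1.62, and Rhag and Klf1 then passed (limma adjusted p = 0.0496 and 0.0269). Named genes lost their call in 132 of their settings and gained it in 31. Signal near background limits genes read under 150, whose differences depend on the added constant.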
